A study of Mus musculus with 2 samples.

Results

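The 9 genes described here, Isg15, Irf1, Irf7, Ifit1, Ifit2, Ifit3, Bst2, Ly6a and Ly6e, are interferon-stimulated genes, taken by name from the 27998 genes of the deposited count tables. The question was whether their levels in tumor-infiltrating natural killer (NK) cells differed between genotypes, and whether any difference was spread over many cells or lay in a few cells with many transcripts. NK cells had been sorted as CD3ε-negative, NK1.1-positive cells from subcutaneous RMA-S tumors 2 weeks after injection of the tumor cells, and their RNA was counted cell by cell with 10x Chromium 3′ chemistry. RMA-S is a mouse lymphoma line with little surface MHC class I, which makes it a target for NK cells. The KO library came from mice lacking Hif1a, the oxygen-regulated subunit of the transcription factor HIF-1, in their NK cells, and the WT library from wild-type mice. No other treatment was named for either genotype. The Cre driver, the age and number of the mice and whether animals were pooled were not given in the sources used here.

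Interferons act in 2 overlapping ways. Type I interferons signal through IFNAR, JAK1 and TYK2 to a transcription factor complex that binds the interferon-stimulated response element (ISRE), while interferon gamma signals through IFNGR, JAK1 and JAK2 to factors that bind the gamma-activated site (GAS). NK cells are themselves a main source of interferon gamma, so they can both secrete and sense it. Irf1 is an early target of interferon gamma, Irf7 amplifies type I interferon production, and Isg15 and the Ifit genes are strongly induced by type I interferon, while Bst2, Ly6a and Ly6e encode GPI-anchored surface proteins that interferon raises in lymphocytes.

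The promoters of 4 of these genes are printed because they differ in the letters of these elements. RefSeq promoters (GRCm38.p6) were matched for 7 of the 9 genes, Ly6a and Ly6e being the exceptions. Each line gives the 250 bases before the annotated start, 5′ to 3′ on the gene's strand, with capitals for matches, on either strand, to the ISRE letters (GAAA, any 2 bases, GAAA) or the GAS letters (TTC, any 3 bases, GAA), where matches may overlap. The Isg15 window is chr4:156200819-156201068 on the minus strand, the Ifit1 window chr19:34640639-34640888 on the plus strand, the Irf1 window chr11:53769764-53770013 on the plus strand and the Irf7 window chr7:141266425-141266674 on the minus strand.
Isg15: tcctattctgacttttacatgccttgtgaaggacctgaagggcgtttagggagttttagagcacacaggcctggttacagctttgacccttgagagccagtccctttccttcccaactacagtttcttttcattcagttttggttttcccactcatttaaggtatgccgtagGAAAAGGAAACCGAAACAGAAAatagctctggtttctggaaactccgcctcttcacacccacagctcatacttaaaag
Ifit1: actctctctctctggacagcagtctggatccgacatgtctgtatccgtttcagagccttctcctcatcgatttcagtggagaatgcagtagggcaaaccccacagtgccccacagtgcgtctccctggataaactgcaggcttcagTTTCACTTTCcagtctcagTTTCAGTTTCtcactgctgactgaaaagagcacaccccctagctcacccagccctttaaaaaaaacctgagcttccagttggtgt
Irf1: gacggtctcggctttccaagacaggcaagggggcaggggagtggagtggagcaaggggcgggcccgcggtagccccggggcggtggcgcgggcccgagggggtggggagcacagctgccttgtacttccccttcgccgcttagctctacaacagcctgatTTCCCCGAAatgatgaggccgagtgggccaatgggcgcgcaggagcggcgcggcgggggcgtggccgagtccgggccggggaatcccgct
Irf7: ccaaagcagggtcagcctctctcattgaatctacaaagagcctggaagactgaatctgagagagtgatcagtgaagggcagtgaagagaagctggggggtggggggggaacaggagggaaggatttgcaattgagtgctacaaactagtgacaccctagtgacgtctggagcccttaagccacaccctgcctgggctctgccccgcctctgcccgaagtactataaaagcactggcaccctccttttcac

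Isg15 held 3 overlapping ISRE matches between 78 and 57 bases before its start, and Ifit1 held 2 separate ones. Ifit3 also held 2, and Bst2 held 2 overlapping ISRE matches that ran into a GAS match. The printed Irf1 promoter had a GAS match 90 to 82 bases before the start and no ISRE match. A promoter of Ifit2 had a GAS match only, and the Irf7 window had neither set of letters. Irf1 and Ifit2 each had a second RefSeq promoter, which held neither set of letters. Over all 32851 RefSeq promoters, 2.98% held the ISRE letters and 7.02% the GAS letters in the same window. A match describes letters and does not show that a factor was bound.

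Each genotype was 1 library, so no test of genotype was possible and a genotype difference cannot be told apart from a difference between 2 libraries. Every interval below is a 95% interval for counting error only. Cells were kept where 500 or more genes were detected and mitochondrial transcripts made up 10% or less. There were 3067 in the KO library, with 13222535 UMIs (unique molecular identifiers, each a counted transcript) and a median of 3793 per cell, and 3555 in the WT library, with 19462712 UMIs and a median of 4440. The libraries shared 19 cell barcodes. NK marker genes summed to 22710 UMIs per 1000000 (CPM) in the KO library and 21976 CPM in the WT library, and 2902 and 3314 cells fell in NK-like clusters. A small T-like cluster held 72 KO and 115 WT cells despite the sort. The 6 plasmacytoid dendritic markers summed to 47.8 and 47.3 CPM, mostly from Tcf4 (566 UMIs in the KO library and 649 in the WT library). Siglech had 0 and 1 UMIs, and Klk1 was at 0 in both libraries. Cox6a2 (48 and 266 UMIs) was lower in the KO library, and Ccr9 (13 and 4) and Bcl11a (5 and 0) were higher. Erythroid markers were at 296 and 858 CPM, T cell markers at 149 and 206 CPM and B cell markers at 9.68 and 2.16 CPM. Basophil markers were at 2.80 and 18.0 CPM, all from Mcpt8 (10 and 301 UMIs) and Cpa3 (27 and 49). The basophil markers Ms4a2, Fcer1a and Prss34 were at 0 in both libraries. The 11 myeloid markers summed to 5329 and 5280 CPM, mostly from Fcer1g and Tyrobp, which NK cells also express. Within that sum the phagocyte genes Lyz2 (517 UMIs in the KO library and 21 in the WT library), S100a8 (153 and 1) and S100a9 (104 and 1) were higher in the KO library, as Isg15 and Irf7 were. Csf1r (14 and 1 UMIs), C1qa (10 and 4) and Ly6c2 (210 and 147 CPM) were also higher there. Itgam (115 and 104 CPM), Fcer1g (2526 and 2359) and Cd68 (12.9 and 12.8) were nearly level. Cst3 (126 and 152 CPM) and Tyrobp (2279 and 2504) were lower in the KO library. The part of these markers in the differences below was not tested. Hif1a itself was at 60.5 CPM in the KO library and 58.2 CPM in the WT one, with a log2 ratio of 0.06 (-0.08 to 0.19), but a 3′ tag can lie outside the deleted part of a gene, so this checks nothing about the deletion.

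The 9 genes did not move as a block between the libraries. Isg15 and Irf7 were at least 1.5-fold higher in the KO library, Ly6a was at least 1.5-fold lower, and the other 6 lay between these limits. Among all 8155 genes that reached 200 UMIs in the 2 libraries together, 5.46% were at least 1.5-fold higher in the KO library and 2.5% at least 1.5-fold lower. The log2 ratio of the KO to the WT level was taken after adding 1 CPM to both, and its median was -0.30 over the 9 genes and 0.04 over those 8155. Isg15, Irf7, Ly6a, Irf1, Bst2 and Ly6e reached 200 UMIs, and the 3 Ifit genes did not.

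**Figure D1:**
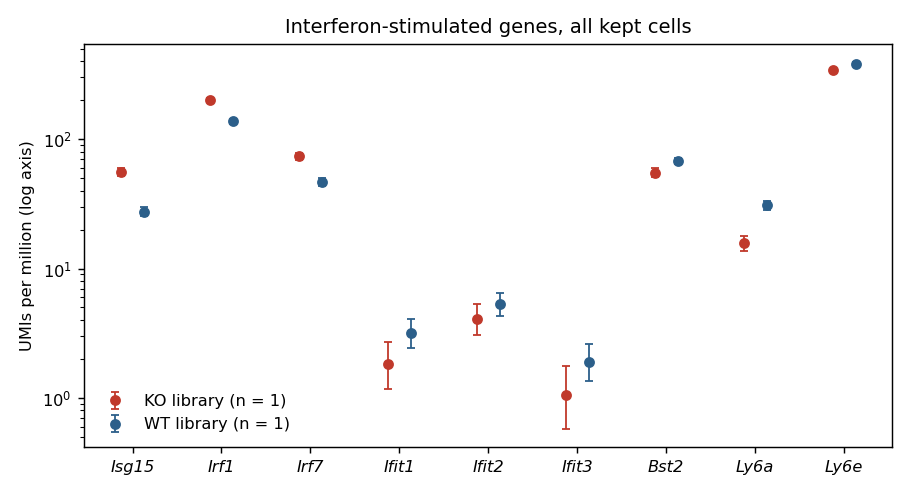
Level of each interferon-stimulated gene in the KO and WT libraries, in CPM on a log axis; bars are 95% Poisson intervals and each library is 1 sample. Isg15, Irf1 and Irf7 sit higher in the KO library, Ly6a sits lower, and the Ifit genes have the widest intervals.

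Of the 2 transcription factors, Irf1, which switches on antigen presentation genes and cytotoxic functions downstream of interferon gamma, lies on chromosome 11 (53770014 to 53778374, GRCm38). It was at 201 CPM in the KO library (2660 UMIs) and 137 CPM in the WT library (2669 UMIs), for a log2 ratio of 0.55 (0.47 to 0.63). That is 1.46-fold, just under the limit used for a call. Irf7, on chromosome 7 (141262706 to 141266481), was at 73.5 CPM in the KO library (972 UMIs) and 46.8 CPM in the WT library (911 UMIs), for a log2 ratio of 0.64 (0.52 to 0.78), or 1.56-fold and so just past it. Both factors were thus higher in the KO library beyond counting error, on either side of the limit and close to it.

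Isg15 encodes a ubiquitin-like protein that is joined to other proteins and also secreted, where it can prompt NK cells to make interferon gamma. The gene lies on chromosome 4 (156199424 to 156200818). It was at 56.0 CPM in the KO library (741 UMIs) and 27.5 CPM in the WT library (536 UMIs), for a log2 ratio of 0.999 (0.86 to 1.19). Its ratio was above that of 98.5% of the genes with at least 200 UMIs, the highest rank among the 9.

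The Ifit genes encode tetratricopeptide-repeat proteins that bind foreign RNA and block its translation, and they lie close together on chromosome 19 (Ifit2 at 34550694 to 34576419, Ifit3 at 34583531 to 34588731 and Ifit1 at 34640871 to 34650009, with Ifit3b between Ifit3 and Ifit1). They were scarce, and each had fewer CPM in the KO library, the opposite of Isg15. Ifit1 was at 1.82 CPM in the KO library (24 UMIs) and 3.19 CPM in the WT library (62 UMIs), for a log2 ratio of -0.57 (-1.56 to -0.11). Ifit2 was at 4.08 CPM (54 UMIs) and 5.29 CPM (103 UMIs), for a log2 ratio of -0.31 (-0.88 to 0.11). Ifit3 was at 1.06 CPM (14 UMIs) and 1.90 CPM (37 UMIs), for a log2 ratio of -0.49 (-1.85 to 0.08). The intervals of Ifit2 and Ifit3 include 0, so no difference was detectable for these 2 genes at this depth. Of the windows of 100 bases tested in the last 500 bases of each gene's transcripts, 4.88% of those of Ifit3 also occurred in its near copy Ifit3b, and none of the other 8 genes shared such a window with another gene. Some Ifit3 reads could therefore belong to either copy.

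Transcripts of the 3 surface protein genes were lower in the KO library to different extents. Ly6a (Sca-1), an activation marker of lymphocytes on chromosome 15 (74994877 to 74998031), was at 15.7 CPM in the KO library (207 UMIs) and 30.9 CPM in the WT library (602 UMIs). Its log2 ratio was -0.94 (-1.22 to -0.75), or 1.92-fold lower in the KO library, and only 1.03% of the 8155 genes ranked at or below it. Bst2, or tetherin, which holds budding viruses to the cell surface and lies on chromosome 8 (71534255 to 71537456), was at 55.2 CPM (730 UMIs) and 68.3 CPM (1329 UMIs), for a log2 ratio of -0.30 (-0.44 to -0.18). Ly6e, a neighbour of Ly6a on chromosome 15 (74955051 to 74959905) that affects virus entry, was at 339.95 CPM (4495 UMIs) and 384 CPM (7472 UMIs), for a log2 ratio of -0.17 (-0.23 to -0.12). The Bst2 and Ly6e differences exceeded counting error and stayed well inside 1.5-fold.

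To compare the share of positive cells at equal depth, each cell with enough UMIs was thinned to 2500 UMIs, which left 2649 KO and 3463 WT cells and set aside 418 and 92 shallower ones. Isg15 was detected in 10.5% of thinned KO cells (9.35 to 11.7) and 6.24% of WT cells (5.45 to 7.09). Positive cells held 1.35 and 1.21 Isg15 UMIs on average. At a mean of 0.142 and 0.0754 thinned UMIs per cell the share follows the mean closely, so it cannot tell more positive cells from more transcripts in each cell. Without thinning the shares were 14.97% and 10.9%.

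Irf7 was detected in 15.7% of KO cells and 11.5% of WT cells, with 1.31 and 1.18 UMIs per positive cell. Irf1 was found in 37.4% of KO cells and 30.6% of WT cells, with 1.37 and 1.26 UMIs per positive cell. Both the shares and the UMIs per positive cell were thus higher in the KO library for these 2 factors, as for Isg15. Unthinned shares were 21.9% and 20.1% for Irf7 and 53.0% and 49.5% for Irf1, closer together because the WT cells were deeper.

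Ly6e was detected in nearly equal shares of thinned cells, 47.1% (KO) and 48.1% (WT), with fewer UMIs per positive KO cell, 1.67 against 1.86. Ly6a was detected in 2.38% of KO cells (1.83 to 3.03) and 3.32% of WT cells (2.75 to 3.97), with 1.19 and 1.504 UMIs per positive cell. Bst2 was detected in 11.2% and 13.1% of cells, with 1.10 and 1.16. Without thinning the shares were 57.0% and 64.0% for Ly6e, 3.23% and 6.13% for Ly6a and 17.5% and 24.2% for Bst2. No cell class was known beforehand to lack these genes. The lowest share of thinned cells with a UMI in any cluster of at least 50 cells was, for Isg15, 0 of 19 cells in cluster 10 of the KO library (exact upper bound 17.6%) and 3.36% in the WT library, for Irf7 2.41% (KO) and 3.36% (WT), and for Irf1 25.8% and 14.6%. The part that free RNA had in the shares was not tested.

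**Figure D2:**
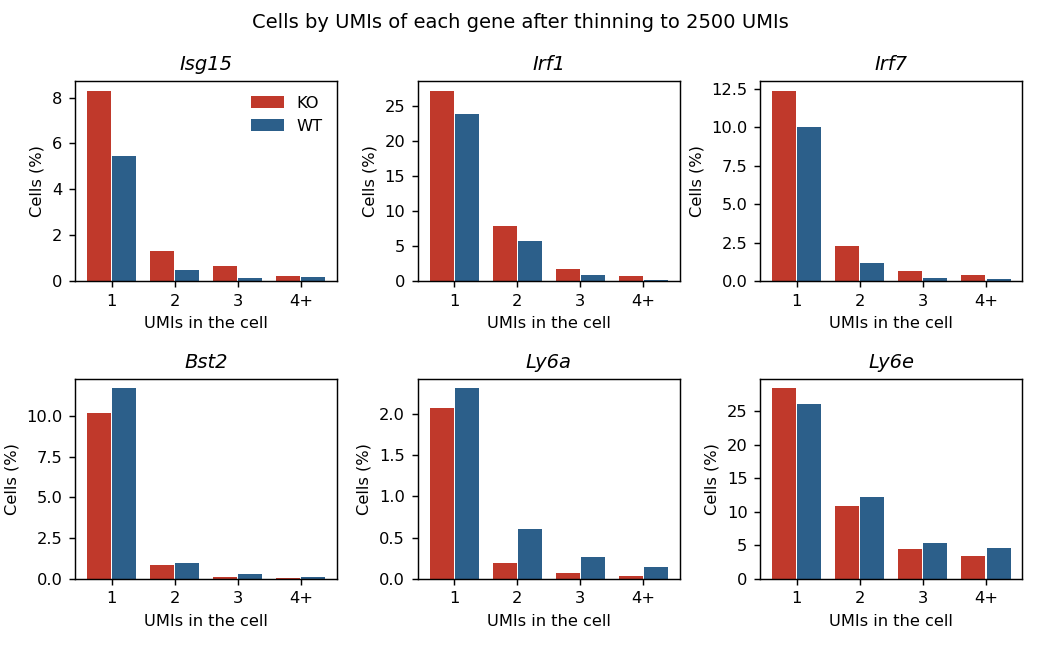
Percent of cells, after thinning to 2500 UMIs each, that held 1, 2, 3 or at least 4 UMIs of each of 6 genes, for the KO and WT libraries. Bars for Isg15, Irf1 and Irf7 are taller in the KO library at 1, 2 and 3 UMIs, while Ly6a bars are taller in the WT library, most of all at 2 or more.

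The genes differed in how far a few cells held their UMIs. The variance over the mean of thinned UMIs per cell has a median of 1.02 over all genes in both libraries, and values of at least 1.5 were called uneven, which 3.94% of genes showed in the KO library and 3.4% in the WT library. Isg15, Ifit3 and Ly6e passed this in the KO library, and Ifit1, Ly6a and Ly6e in the WT library. Among NK-like cells alone, 1 of the 9 genes passed in the KO library and 2 in the WT library. The measure does not by itself show a few high cells. Ly6e passed with many positive cells, and its top 1% of cells held 7.09% (KO) and 8.34% (WT) of its UMIs. Ifit3 passed in the KO library on 8 UMIs, of which 1 cell held 3.

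Isg15 had a ratio of variance to mean of 1.80 in the KO library and 1.49 in the WT library. In the KO library 220 cells held 1 Isg15 UMI, 58 held 2 or more and the highest held 10, and the top 1% of cells (27 cells) had 24.8% of its UMIs. In the WT library 189 cells held 1, 27 held 2 or more and the highest held 6, and the top 1% (35 cells) had 30.7%. With the 1% of cells highest in Isg15 left out of each library, its log2 ratio was 0.99. The KO excess was therefore as large without the cells richest in Isg15.

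Ly6a had a variance over mean of 1.43 in the KO library and 2.07 in the WT library, the highest WT value of the 9 genes. Its top 1% of cells held 52.0% and 53.8% of its thinned UMIs. Cells with 2 or more Ly6a UMIs numbered 8 of 63 positive cells in the KO library and 35 of 115 in the WT library. Ly6e had values of 1.54 and 1.91 with 47.1% and 48.1% of cells positive, and Irf1 had 1.24 and 1.10, nearer the median of all genes.

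Very few cells held the Ifit transcripts. All 9 Ifit1-positive thinned KO cells held 1 UMI each, while 25 WT cells were positive and the highest held 5. Before thinning, 3 WT cells of 1 small cluster held 20 of the 62 Ifit1 UMIs of the library. Leaving out the 1% of cells highest in a gene cannot show how evenly Ifit1 and Ifit3 were spread. It removed every cell with an Ifit3 UMI (9 KO and 31 WT cells). The Ifit3 log2 ratio of 0.00 that remained, against -0.49 as measured, was therefore set by the added 1 CPM. For Ifit1 it removed all 20 positive KO cells and most of the 40 positive WT cells, which gave -0.27 against -0.57.

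Cells with several type I genes at once were rare in both libraries. At least 3 of the 5 genes Isg15, Irf7, Ifit1, Ifit2 and Ifit3 were detected in 6 of 2649 thinned KO cells, or 0.227% (0.083 to 0.492), and in 6 of 3463 WT cells, or 0.173% (0.064 to 0.377). The intervals overlap. A second random thinning gave 0.0755% for the KO library, so the value rests on very few transcripts. Just below the limit, exactly 2 of the 5 genes were found in 62 KO cells, or 2.34% (1.80 to 2.99), and in 45 WT cells, or 1.30% (0.95 to 1.73). These intervals do not overlap. However, Isg15 and Irf7 met in 57 KO and 29 WT cells, counting those with 3 or more of the genes. Most cells with exactly 2 genes thus held this pair, and both genes were already higher in the KO library. The difference therefore does not show more KO cells with a wider type I response.

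These cells also carried transcripts of other interferon genes, which had no part in choosing them. The 38 other type I response genes summed to 4, 5, 17, 17, 28 and 33 UMIs in the 6 KO cells, against a median of 5 in KO cells with at most 1 of the 5 genes. The 6 WT cells held 15, 16, 16, 17, 24 and 34, against a median of 6. All 6 WT cells and 4 of the 6 KO cells thus stood far above the usual cell, while 2 KO cells did not. Only 0.349% of the other KO cells and 0.381% of the other WT cells reached the medians of these sets, 17 and 16.5. The 22 interferon gamma response genes summed to 3, 4, 9, 11, 14 and 21 UMIs in the KO cells and to 4, 6, 8, 9, 14 and 20 in the WT cells, against a median of 3 in both libraries. The 6 KO cells came from 4 clusters and the 6 WT cells from 5, so they formed no cluster of their own. Each set held 1 T-like cell, and the WT set also 1 cell of the unnamed cluster 7. NK markers summed to 17133 CPM in the KO set and 14000 CPM in the WT set, against 23098 and 22372 CPM in cells with at most 1 of the 5 genes. T cell markers summed to 400 and 533 CPM against 141 and 196 CPM, resting on 6 and 8 UMIs, and ILC markers to 66.7 and 533 CPM against 169.9 and 142 CPM. B cell and basophil markers were at 0 in both sets, and plasmacytoid dendritic markers had 2 UMIs in the KO set and 1 in the WT set. The part of other cell types in these sets was not tested.

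Pairs of the genes met in the same cells to different degrees. In the KO library 20.5% of Isg15-positive cells had an Irf7 UMI, against 15.1% of the other cells. The WT values were 13.4% and 11.4%. Isg15 and Irf1 showed no such excess, with Irf1 in 37.8% of Isg15-positive and 37.4% of other KO cells, and in 27.8% and 30.7% in the WT library. Ly6a and Ly6e met often: 71.4% of Ly6a-positive KO cells had Ly6e against 46.5% of others, and 73.0% against 47.2% in the WT library. These are descriptions within 1 library each and carry no test.

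Clusters were drawn from both libraries together without the 9 genes or the other interferon genes, which gave 11 clusters of at least 50 cells. Several were made up very unequally of the 2 libraries. Cluster 1, led by Nr4a1, Ccl4, Nfkbia and Gadd45b, held 1081 KO and 96 WT cells, and cluster 6, led by Crem, Fosl2, Emb and Bcl2l11, held 505 KO and 23 WT cells. Clusters 9 (led by Spp1, Mif and Cd74) and 10 (led by the proliferation genes Hist1h2ap, Stmn1 and Tuba1b) held more WT cells, 37 KO against 120 WT and 20 against 131. Cluster 7, led by Xcl1, Ltb, Tmem176b and Cd82, stayed unnamed and held 87 KO and 120 WT cells, and cluster 8 was T-like. A further cluster, numbered 11 and led by Mt1, Stard10, Mt2 and Gm525, held only 6 KO and 6 WT cells. It is left out of the counts of clusters below, but its cells stayed in the whole-library values.

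Isg15 had more of its KO UMIs in cluster 1 than that cluster's share of cells. This cluster held 411 of its 741 KO UMIs, or 55.5%, with 35.2% of the KO cells. Its level there was 97.5 CPM in the KO library and 36.5 CPM in the WT library (14 UMIs in 11 cells), for a log2 ratio of 1.40 (0.66 to 2.30). These 411 UMIs lay in 221 cells, and the top 10 cells held 20.4% of them. A high KO level was not particular to cluster 1. The T-like cluster 8 had 89.2 CPM (59.8 to 128) in the KO library, where 3 cells held 18 of 29 UMIs. Its WT level was 54.0 CPM, for a log2 ratio of 0.71 (-0.05 to 1.49). In cluster 0, the largest with many cells of both libraries, led by Hspa1a, Fos and Jun, the levels were 27.2 and 24.2 CPM (log2 ratio 0.16, -0.35 to 0.67). Cluster 3 had 32.5 and 16.2 CPM (0.96, 0.44 to 1.57) and cluster 9 had 74.3 and 23.0 CPM (1.65, 0.68 to 2.66). The KO level was higher in 9 of the 11 clusters, with intervals above 0 in clusters 1, 3 and 9. In cluster 9 of the KO library, 3 cells held 12 of the 16 Isg15 UMIs, which an interval for counting error does not take into account.

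Cluster 7 went the other way for Isg15, with 46.5 CPM in the KO library (23 UMIs in 13 cells) and 113 CPM in the WT library (77 UMIs in 41 cells), for a log2 ratio of -1.26 (-2.02 to -0.59). There 3 KO cells held 10 of the 23 UMIs, and the top 10 WT cells held 55.8% of the 77. An interval for counting error does not take this into account. The intervals for the share of thinned cells with an Isg15 UMI overlapped in cluster 7, at 5.08 to 19.6% (KO) and 14.1 to 29.4% (WT). Over all NK-like cells the levels were 55.6 and 23.6 CPM, for a log2 ratio of 1.20 (1.06 to 1.41). The difference between these 2 ratios was not tested. The other NK-like ratios were 0.54 for Irf1, 0.64 for Irf7, -0.34 for Bst2, -1.07 for Ly6a and -0.12 for Ly6e, so leaving out the T-like and unnamed cells turned no direction. Cluster 7 of the WT library also held 37.1% of the Ifit1 UMIs of that library, 23 UMIs in 6 cells.

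Irf1 was highest in cluster 1 in both libraries, at 248 CPM (KO) and 286 CPM (WT). In the KO library cluster 5, led by Klra4 and Klra9, was level with it at 247 CPM (208 to 293), and cluster 6 had 235 CPM. The KO level was higher in 9 of 11 clusters, and the log2 ratio ran from -0.21 in cluster 1 to 0.79 in the T-like cluster 8 (0.28 to 1.32). Cluster 4, at 0.69 (0.30 to 1.08), was the only other cluster whose interval excluded 0. Irf7 was also highest in cluster 1, at 104 CPM in the KO library and 99.0 CPM in the WT library, for a log2 ratio of 0.07. It was higher in the KO library in 7 of 11 clusters, and only in cluster 9 did its interval lie above 0. That interval rests on 10 KO UMIs, of which 3 cells held 8. In the other 10 clusters the Irf7 difference was inside counting error.

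Of the 11 clusters of at least 50 cells, Bst2 was highest in cluster 7, at 172 CPM (KO) and 165 CPM (WT), and no cluster's interval excluded 0. The small cluster 11 had 333 and 447 CPM from 6 cells of each library, and 1 WT cell held 31 of its 61 WT UMIs. Ly6a was highest in the proliferating cluster 10, at 153 and 123 CPM. Cluster 9 had 111 and 92.9 CPM, second in the KO library but below cluster 7 in the WT library. These KO levels rest on few cells: 3 cells held 25 of the 40 Ly6a UMIs of cluster 10 and 18 of the 24 of cluster 9. Cluster 10 held 42.4% of the Ly6a UMIs with 3.68% of the cells in the WT library, and 19.3% with 0.652% of the cells in the KO library. In cluster 3 Ly6a was higher in the KO library, 26.8 against 12.7 CPM (log2 ratio 1.02, 0.44 to 1.70), the reverse of the whole-library difference. In cluster 7 it was lower in the KO library, 80.9 against 120.1 CPM (-0.56, -1.15 to -0.01), and the other 9 intervals included 0. Ly6e was highest in cluster 7, at 953 CPM (KO) and 1294 CPM (WT), for a log2 ratio of -0.44 (-0.61 to -0.28). Cluster 8 gave -0.51 and cluster 6 gave -0.56 (-0.98 to -0.12). Clusters 3 and 4 went the other way, with 0.21 (0.09 to 0.33) and 0.49 (0.10 to 0.87).

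**Figure D3:**
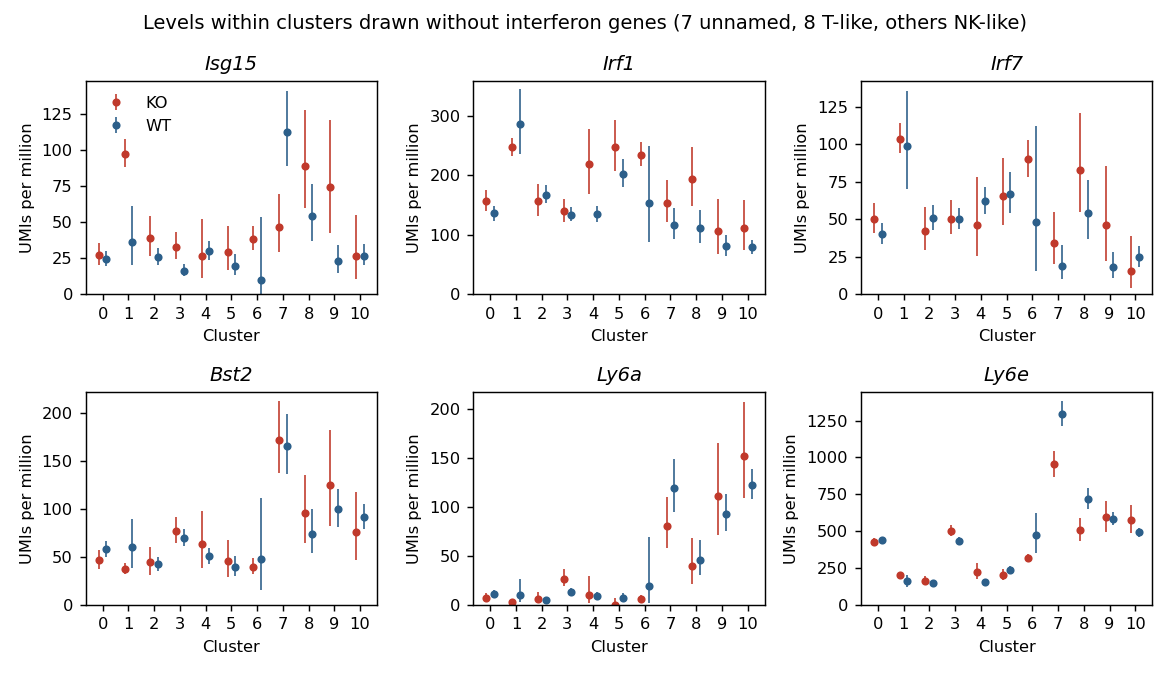
Level of 6 genes, in CPM, in each of 11 clusters for the KO and WT libraries; bars are 95% Poisson intervals. Isg15 is far higher in the KO library in cluster 1 and higher in the WT library in cluster 7, Irf7 pairs mostly overlap, and Ly6a is highest in cluster 10 of both libraries.

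The ratios of the 6 more abundant genes moved with the cluster make-up of the libraries. When KO cells were weighted so that each cluster had its WT share, the log2 ratio was 0.38 for Isg15, 0.27 for Irf1 and 0.02 for Irf7, and neither Isg15 nor Irf7 passed 1.5-fold. With clusters 1 and 6 left out, the values were 0.38, 0.26 and 0.09. Ly6a became 0.12 with the weighting, against -0.94 as measured, -0.21 without clusters 1 and 6, and -0.42 without clusters 9 and 10. The weighting raised the part of cluster 10, where the KO library had 20 cells and 3 of them held 25 of 40 Ly6a UMIs. Bst2 and Ly6e changed sign as well, to 0.01 and 0.05 with the weighting and to 0.06 and 0.17 without clusters 1 and 6. Cluster shares differ between libraries of 1 sample each, so a difference in cell state and a difference in handling cannot be told apart.

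Nr4a1 and Nfkbia, among the genes leading cluster 1, are early-response genes, which are also switched on by cell dissociation. Fos and Jun, also early-response genes, were among those leading cluster 0, where the Isg15 log2 ratio was 0.16 (-0.35 to 0.67). The 9 genes were therefore also read by the thinned UMIs of 12 early-response genes, among them Fos, Jun, Egr1, Nr4a1 and Nfkbia. Cells of both libraries together were split by these into 3 near-equal groups (low, middle and high). Since the 12 include genes that lead cluster 1, the groups are not independent of that cluster. The bounds were 13 and 25 UMIs, so the high group has no upper bound and levels inside it were not matched between the libraries. The high group held 1315 KO and 698 WT cells, the low group 684 and 1487. In the low group Isg15 was at 27.5 CPM (KO) and 23.7 CPM (WT), for a log2 ratio of 0.21 (-0.33 to 0.74). The middle group had 51.1 and 37.2 CPM (0.45, 0.03 to 0.87). In the high group the levels were 74.5 and 30.9 CPM (1.24, 0.84 to 1.72). The KO level was thus higher in each successive group, while the WT level was highest in the middle one.

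Irf1 was higher in each successive group in both libraries, from 129 to 191 to 251 CPM in the KO library and from 117 to 168 to 206 CPM in the WT library. Its log2 ratio within the groups was 0.14, 0.18 and 0.28, each smaller than the 0.55 of the whole libraries. Irf7 was likewise higher in each, from 54.4 to 66.5 to 105 CPM in the KO library and from 44.4 to 56.7 to 72.2 CPM in the WT library, with ratios of 0.29, 0.23 and 0.53. Ly6e was lower in each successive group of KO cells, from 451 to 322 to 241 CPM, against 351, 357 and 378 CPM in WT cells. Its ratio therefore ran from 0.36 (0.23 to 0.49) in the low group to -0.65 (-0.80 to -0.50) in the high one. Bst2 ratios were -0.06, -0.16 and -0.53. Ly6a ratios were -0.21, -1.05 and -0.70. The part of dissociation in any of these values was not tested.

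**Figure D4:**
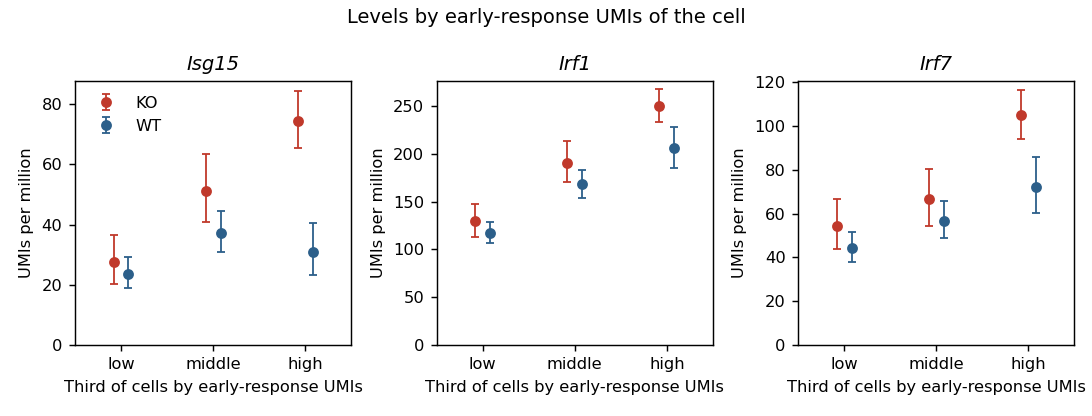
Level of Isg15, Irf1 and Irf7, in CPM, in cells with few, intermediate or many early-response UMIs, for the KO and WT libraries; bars are 95% Poisson intervals. The libraries are close in the low group, and Isg15 differs most in the high one, at 74.5 against 30.9 CPM.

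The rest of the interferon pathway was read from lists of its ligands, receptors, inhibitors and targets, counting genes with at least 50 UMIs. Of 7 ligands only Ifng, which encodes interferon gamma, reached that number, at 702 CPM in the KO library and 333 CPM in the WT library, for a log2 ratio of 1.07. The other 6 ligand genes, all type I or type III interferons, were under 50 UMIs. None of the 6 measured receptor and kinase genes passed 1.5-fold (median log2 ratio 0.23), with Jak2 at 0.39, Ifngr1 at 0.38 and Ifnar1 at 0.33.

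Among 8 genes listed as inhibitors, 3 were at least 1.5-fold higher and none lower (median 0.36). The list included Isg20 (log2 ratio -0.48), which is an interferon-stimulated gene rather than an inhibitor of the pathway. Over all genes, counted from 200 UMIs, 5.46% were higher and 2.5% lower. With that minimum the list still had 3 higher and none lower. The suppressor of cytokine signalling Socs3 was at 103 CPM (KO) and 54.5 CPM (WT), its relative Cish at 27.2 and 14.5 CPM, and Socs1 at 36.5 and 22.6 CPM, log2 ratios of 0.90, 0.86 and 0.67. Usp18, which removes Isg15 from proteins and damps the type I receptor, had 26.6 and 17.9 CPM and a ratio of 0.55.

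The targets outside the 9 genes were mixed. Of 31 measured genes among the other type I response genes, 2 were at least 1.5-fold higher and 2 lower, and the median was 0.01. Over all genes the shares were 5.46% and 2.5%, but those were counted from 200 UMIs. Of the 23 genes of this list with that many UMIs, none was at least 1.5-fold higher and 2 were lower. Ifi204, a DNA sensor, had 7.11 CPM (KO) and 3.70 CPM (WT), while Samd9l had 19.1 and 38.8 CPM, log2 ratios of 0.79 and -0.99. Ifi27l2a had 10.1 and 17.4 CPM (-0.72) and Phf11b 36.2 and 52.2 CPM (-0.52). Of 17 measured interferon gamma response genes, 4 were higher and none lower, and the median was 0.14, beside the same 5.46% and 2.5%. With a minimum of 200 UMIs, 3 were higher and none lower. Gbp5, a guanylate-binding protein that acts on inflammasomes, had 36.4 and 18.9 CPM, Gbp2 had 29.5 and 18.2 CPM, and the chemokine gene Cxcl10 had 37.3 and 23.3 CPM, log2 ratios of 0.91, 0.67 and 0.65. The medians lie beside 0.04 over all genes, and the 2 lists were not tested against each other.

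Of the correlations across thinned cells, only up to 3 genes per member are given, those with the highest Pearson r of at least 0.1 in both libraries. For Irf1 these were Junb (0.16 in the KO library and 0.13 in the WT library), Nfkbia (0.15 and 0.12) and Ier2 (0.13 and 0.10). For Ly6a they were Gzmd (0.17 and 0.21), Cd74 (0.20 and 0.15) and Gzmc (0.15 and 0.21), and for Ly6e Ltb (0.29 and 0.32), Rpl13 (0.19 and 0.23) and Rps28 (0.19 and 0.20). No gene met it for the other 6 members. Such correlations in sparse counts are weak, and the cells share a library, so they are given as descriptions only.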

How the data were processed

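The authors deposited 1 table of UMI counts per library, with genes in rows and cell barcodes in columns, and these counts were used as deposited. The submitters' processing notes name Cell Ranger 2.0.2, Seurat and the mm10 genome build, without their roles. How cells were called, which annotation was used and whether doublets were removed was not given in the sources used here. Per the labels, each genotype had 1 library.

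The 9 genes and all gene lists were chosen with earlier results of these data known. A list of pathway transcription factors is not reported here. Barcodes were kept if they had 500 or more detected genes and no more than 10% mitochondrial UMIs. Doublets were not called and stayed in. UMIs were summed over kept cells and given per 1000000 (CPM), and log2 ratios of KO over WT used 1 CPM added to each level. Poisson, conditional binomial and Clopper-Pearson intervals are exact, at 95%, and cover counting error only. For shares and concentration each cell was thinned to 2500 UMIs. Intervals of log2 ratios were computed without the added 1 CPM. Clusters came from scanpy 1.11.5 and leidenalg 0.10.2 (10000 counts per cell, log1p, 2000 variable genes, 30 components, 15 neighbours, resolution 0.8), and were named from marker lists. The scripts were tested on simulated data. Python 3.11.15, numpy 2.4.6, scipy 1.17.1 and matplotlib 3.10.9 were used. Gene positions are from GENCODE M21.

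Named genes were the 9 members, up to 4 genes per interferon list (those of 100 UMIs or more with the log2 ratio farthest from 0), up to 3 genes per member with the highest correlation of at least 0.1 in both libraries, the top 4 genes of each cluster, and Hif1a. Single marker genes and Isg20 are named as well, to show what their lists held. Alternatives covered the added CPM, the scaling, the thinning, the cells kept and the cluster make-up.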

Additional observations from a re-analysis of the deposited data

Results flagged for a closer look

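Isg15, measured as CPM, differed between the libraries in opposite directions in separate groups of cells. Its log2 ratio of KO over WT was 1.20 over NK-like cells and -1.26 in the unnamed cluster 7, led by Xcl1 and Ltb. The intervals for counting error lie on opposite sides of 0, but they do not take into account how few cells held the UMIs. In cluster 7, 3 KO cells held 10 of 23 Isg15 UMIs, and the top 10 WT cells held 55.8% of 77. The intervals for the share of thinned cells with an Isg15 UMI overlapped there, at 5.08 to 19.6% (KO) and 14.1 to 29.4% (WT). The difference between the 2 ratios was not tested, since each genotype had 1 library.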

How the results depend on the processing

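The count of genes at least 1.5-fold higher in the KO library, 2 as reported, was 1 with the mean over cells and without clusters 9 and 10, and 0 with KO cells weighted to the WT share of each cluster and without clusters 1 and 6. The count of those at least 1.5-fold lower, 1 as reported, was 3 with 0.1 CPM added (Ifit1 and Ifit3 joining Ly6a) and with a total that left out mitochondrial, ribosomal protein and the 50 top genes. It was 2 when centred on the median of all genes, with the mean over cells, without the 3% of cells with most UMIs, without the 1% of cells highest in the gene and without clusters 9 and 10, and 0 without clusters 1 and 6. The Ly6a log2 ratio reversed to 0.12 with the weighting, which raised the part of the 20 KO cells of cluster 10. The share of cells with at least 3 of the 5 type I genes was 0.0755% in the KO library with a second seed and 0.394% in the WT library with no thinning, and with at least 2 genes 2.57% and 1.47%, as the lower limit admits more cells. Genes with a variance over mean of at least 1.5, 3 in each library, numbered 5 in each at 4000 UMIs and 6 in each with no thinning, and 1 in the KO library among NK-like cells. No other type I response gene was at least 1.5-fold higher with a minimum of 200 UMIs, where there were 2, since fewer genes were read. Except where stated, the cause was not tested. Of the alternative log2 ratios of the 9 genes, 97 stayed within the interval of the reported value, 19 moved beyond it, and that of Ly6a, past 1.5-fold as reported, reversed. Among the 19, those of Bst2 and Ly6e changed sign in 2 settings each. The settings that left out clusters 1 and 6, 9 and 10, or 7 were chosen after seeing the data. No paired analysis was possible because each genotype had 1 library, and for the same reason no library could be left out. Depth limits the Ifit genes most, since they had between 14 and 103 UMIs per library.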
